A study of Mus musculus with 15 samples.

Results

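The genes described here are 10 members of the unfolded protein and amino acid responses: Hspa5, Pdia6, Dnajb9, Aldh18a1, Phgdh, Asns, Ddit3, Trib3, Chac1 and Sesn2. They were taken by name from the 19938 genes that had a probe set with a single gene symbol. Each of the 10 had exactly 1 such probe set. The 10 genes and the wider gene lists were chosen with earlier results of these data known. Counts among them beside shares of all genes are therefore descriptive and give no independent support. RNA came from the right hippocampi of 15 mouse pups, all male and C57BL/6, at postnatal day 9, and was read on Affymetrix Mouse Gene 1.0 ST arrays, whose probes are spread over a gene's exons. The pups formed 5 groups of 3, treated between postnatal days 5 and 9 with birth counted as day 1: severe stress with the opioid morphine (SSM), severe stress with saline vehicle (SSS), mild stress with morphine (MSM), mild stress with saline vehicle (MSS) and no treatment (CC). Litters were limited to 7 pups per dam, and the sources used here give neither the form of the severe and mild stress, nor the morphine dose, nor each pup's litter. Nothing in the labels ties arrays to separate litters, so p-values measure only the spread between these arrays.

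The endoplasmic reticulum (ER) folds secreted and membrane proteins, and when unfolded protein accumulates there, the sensors Ern1 (IRE1), Eif2ak3 (PERK) and Atf6 switch on chaperones, folding enzymes and degradation factors. PERK and the amino acid sensor Eif2ak4 (GCN2) phosphorylate the same initiation factor, eIF2 alpha, which slows translation in general and favours translation of the transcription factor Atf4. Atf4 raises genes for amino acid synthesis and import, tRNA charging and, under lasting stress, the factors Ddit3, Trib3 and Chac1. The mRNA levels of these targets are therefore widely used as a readout of both responses, in brain as in other tissues.

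All values are log2 intensities made with RMA, so a difference of 1 is a doubling, and differences are given as log2 differences with their standard error (SE) from limma. Adjusted p-values come from limma's moderated test with Benjamini-Hochberg adjustment over all 19938 genes, with a threshold of 0.05. Array medians over genes lay between 6.22 and 6.39, the highest being that of SSM replicate 3, and pairwise correlations between arrays ran from 0.990 to 0.998, with 0 pairs of identical arrays. With 3 arrays a group the precision is limited: a difference between a pair of groups had a median SE of 0.081 over all genes. The titles carry an SS number of unstated meaning, which was 12 for CC, 11 for both mild groups and 8 to 10 for the severe groups. Stress severity and SS number therefore cannot be told apart, and neither can stress and SS number in any comparison with CC. The 8 hippocampal neuron markers were measured on every array, and their summed level was lowest on MSM replicate 3 (10.86, where thalamus markers reached 12.36) and SSM replicate 1 (11.40, where striatum markers reached 12.75), against 11.66 to 11.96 on the other 13 arrays. Some results for averaged severity, averaged morphine and SSM minus MSM are also given without both arrays. Other comparisons keep both, except where a single array is left out.

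Of the 10 promoters, 5 held a match to a site through which these responses are known to act, and 4 of these are shown whole to place the sites, with the match of the fifth, Trib3, given alone. The windows run from 250 bases before to 50 bases after the transcription start site, from RefSeq's table for GRCm38.p6, which held all 10 genes. Capitals mark the ER stress element (CCAAT, 9 bases and CCACG, bound by Atf6 with the factor NF-Y), the unfolded protein element (TGACGTG) or the Atf4 site (TGATGNAA, where N is any base), each searched on both strands.
Hspa5: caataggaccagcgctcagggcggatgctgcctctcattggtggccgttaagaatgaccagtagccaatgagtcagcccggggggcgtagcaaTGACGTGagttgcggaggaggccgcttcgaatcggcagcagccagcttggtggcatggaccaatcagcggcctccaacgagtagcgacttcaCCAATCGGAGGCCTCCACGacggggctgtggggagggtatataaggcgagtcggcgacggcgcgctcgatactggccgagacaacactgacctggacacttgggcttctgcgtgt
Pdia6: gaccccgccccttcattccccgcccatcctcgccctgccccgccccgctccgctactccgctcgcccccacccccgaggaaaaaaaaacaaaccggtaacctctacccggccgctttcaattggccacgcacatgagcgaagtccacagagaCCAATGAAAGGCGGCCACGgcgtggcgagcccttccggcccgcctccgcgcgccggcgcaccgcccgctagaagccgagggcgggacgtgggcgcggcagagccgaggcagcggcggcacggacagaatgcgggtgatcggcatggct
Chac1: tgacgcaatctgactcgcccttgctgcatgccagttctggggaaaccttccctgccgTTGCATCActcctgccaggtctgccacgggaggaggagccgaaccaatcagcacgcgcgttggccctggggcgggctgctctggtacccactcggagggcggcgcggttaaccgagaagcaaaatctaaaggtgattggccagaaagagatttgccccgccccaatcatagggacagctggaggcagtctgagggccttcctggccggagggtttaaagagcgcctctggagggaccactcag
Asns: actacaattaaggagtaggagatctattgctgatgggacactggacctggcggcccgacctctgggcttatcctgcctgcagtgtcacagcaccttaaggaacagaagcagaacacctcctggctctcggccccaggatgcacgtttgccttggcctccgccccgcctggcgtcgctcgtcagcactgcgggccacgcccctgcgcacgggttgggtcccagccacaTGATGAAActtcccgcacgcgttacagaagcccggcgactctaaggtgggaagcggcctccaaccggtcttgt
The Hspa5 window is chr2:34771840-34772139 on the plus strand and the Pdia6 window chr12:17266339-17266638 on the plus strand. Chac1's is chr2:119350992-119351291 on the plus strand and that of Asns is chr6:7693160-7693459 on the minus strand. Hspa5 and Pdia6 each held the ER stress element on the gene's strand, at positions -65 to -47 and -98 to -80 from the start site, and 39 of 32851 promoters in the table (0.119%) hold it. Hspa5 also held the unfolded protein element at position -157, which 2.01% of promoters have. The Atf4 site lay at -193 on the other strand in Chac1, at -23 on the gene's strand in Asns, and as TTACATCA, on the other strand from position 15, in Trib3, and 3.97% of promoters hold it. The cyclic AMP element (TGACGTCA), which 1.79% of promoters hold, was in none of the 10. For the other 5 genes, no match means only that these letters are not in the window.

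Whether severe stress differed from mild stress was asked first, as the mean of the severity difference under morphine (SSM minus MSM) and under saline (SSS minus MSS). Of the 10 genes, 8 had a higher mean under severe stress, led by Dnajb9 (0.23), Phgdh (0.22), Chac1 (0.19) and Aldh18a1 (0.16), and 2 a lower one, Sesn2 (-0.12) and Ddit3 (-0.0033). The median difference was 0.099, against 0.035 over all genes, of which 70.3% were higher. None of the 10 passed the threshold, and the smallest adjusted p (limma) was 0.142, for Aldh18a1. Over all genes 2 passed, the kelch-domain gene Kbtbd7 and the microRNA gene Mir380 (0.0100%), which were named after their values were seen. At an unadjusted p under 0.05, 4 of the 10 were higher (Aldh18a1, Dnajb9, Phgdh and Chac1, against 9.28% of all genes) and 1 lower (Sesn2, against 2.80%). Sesn2 was at the edge of that cutoff (limma, unadjusted p = 0.0498). The count of lower genes stayed 1 after median centring (5.02% of all genes). It was 0 after quantile normalization (4.08%), with array weights (5.11%) and without SSM replicate 3 (4.68%), among other alternatives. With a filter on dim genes, which kept 9 of the 10, 5 were higher and 1 lower at that cutoff. The shares among the genes kept were then 15.1% higher and 3.76% lower. None of the 10 separated all 6 severe arrays from all 6 mild arrays in either direction, as 0.687% of all genes did upward and 0.411% downward. In such bulk RNA, a change in the share of cells that express a gene and a change in its RNA per cell cannot be told apart.

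**Figure D1:**
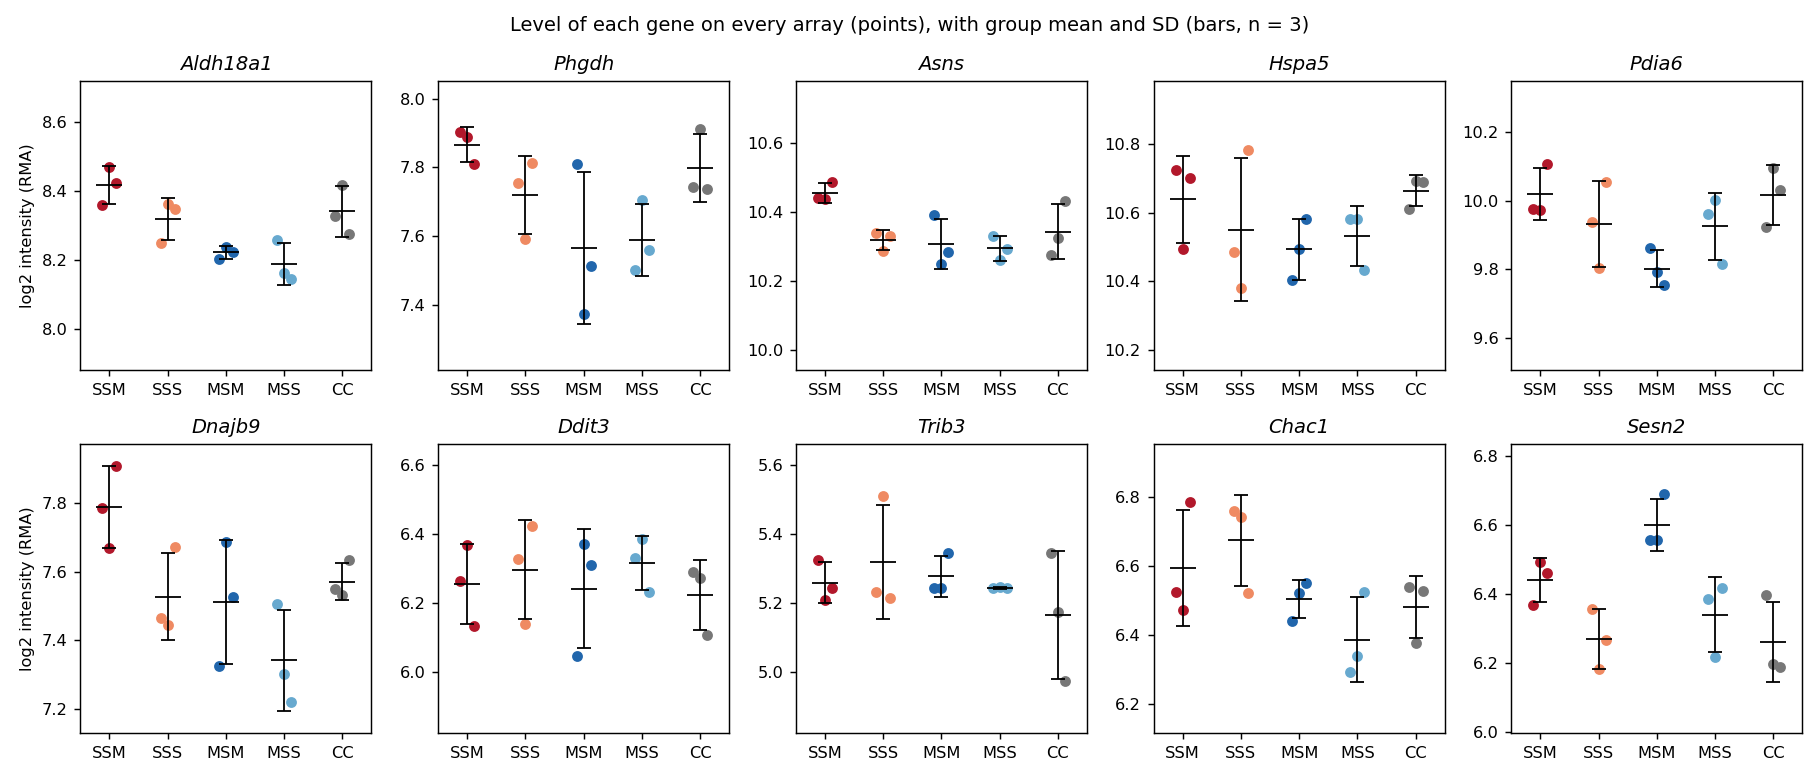
Log2 intensity (RMA, vertical axis) of the 10 genes on each of the 15 arrays, a panel per gene, with groups SSM, SSS, MSM, MSS and CC from left to right; points are arrays, horizontal marks group means and bars SD (n = 3). For Aldh18a1 the 3 SSM arrays (8.36 to 8.47) lie above all 6 mild arrays (8.14 to 8.26), while the Ddit3 groups overlap.

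Among the ER chaperones and folding enzymes, Hspa5 encodes BiP, the Hsp70 chaperone of the ER lumen that also keeps the sensors inactive. It measured 10.72, 10.49 and 10.70 in SSM and 10.49, 10.38 and 10.78 in SSS, against 10.41, 10.49 and 10.58 in MSM, 10.58, 10.58 and 10.43 in MSS and 10.61, 10.69 and 10.69 in CC. The severe arrays held both the highest and the lowest Hspa5 value of the series (SSS replicates 3 and 2), and the severity difference of 0.08 (SE 0.067, adjusted p = 0.653) was smaller than the spread of the SSS arrays (SD 0.207, n = 3). Pdia6 encodes a protein disulfide isomerase that works with BiP. Its levels were 9.98, 9.97 and 10.11 in SSM and 9.94, 9.81 and 10.05 in SSS, against 9.86, 9.79 and 9.75 in MSM, 9.96, 10.001 and 9.82 in MSS and 9.92, 10.09 and 10.03 in CC. All SSM arrays exceeded all MSM arrays, whereas SSS and MSS overlapped, and the averaged difference was 0.11 (SE 0.053, adjusted p = 0.424). Dnajb9, also called ERdj4, is a J-domain co-chaperone of BiP. It measured 7.79, 7.67 and 7.91 in SSM and 7.46, 7.44 and 7.67 in SSS, against 7.33, 7.69 and 7.52 in MSM, 7.51, 7.30 and 7.22 in MSS and 7.55, 7.53 and 7.63 in CC. SSM was high and MSS low, with SSS, MSM and CC between, and the severity difference of 0.23 (SE 0.070, 1.17-fold, adjusted p = 0.226) was the largest of the 10. Only 2 of the 6 severe Dnajb9 values lay above the highest mild one, because MSM replicate 2 reached 7.69.

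The enzymes of amino acid synthesis had higher means under severe stress. Aldh18a1 encodes pyrroline-5-carboxylate synthase, which starts proline synthesis from glutamate. Its levels were 8.36, 8.47 and 8.42 in SSM and 8.25, 8.36 and 8.35 in SSS, against 8.20, 8.24 and 8.22 in MSM, 8.26, 8.16 and 8.14 in MSS and 8.33, 8.42 and 8.27 in CC. Aldh18a1 came closest to separating the stress levels: 5 of 6 severe arrays lay above the highest mild array, the exception being SSS replicate 1. Its difference was 0.16 (SE 0.041, 1.12-fold, 95% interval 0.076 to 0.25, adjusted p = 0.142).

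Phgdh encodes phosphoglycerate dehydrogenase, the first committed enzyme of serine synthesis, which in brain is known as an enzyme of astrocytes and radial glia. It measured 7.90, 7.89 and 7.81 in SSM and 7.75, 7.59 and 7.81 in SSS, against 7.81, 7.38 and 7.52 in MSM, 7.50, 7.71 and 7.56 in MSS and 7.74, 7.91 and 7.74 in CC. The 3 SSM arrays were high, and 4 of 6 severe arrays exceeded the highest mild one, MSM replicate 1. The Phgdh difference was 0.22 (SE 0.070, 1.16-fold, adjusted p = 0.249). A further probe set is shared by Phgdh and the predicted gene Gm6756 and cannot be assigned to either. On it the severe arrays averaged 8.14 ± 0.106 and the mild arrays 8.04 ± 0.097 (SD, n = 6 each), against 8.04 ± 0.120 in CC (SD, n = 3). Summed astrocyte markers (8 of 8 measured) ran from 13.50 to 13.55 on severe arrays and from 13.41 to 13.58 on mild arrays, with 3 of the 8 higher under severe stress.

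Asns encodes asparagine synthetase, a classical target of amino acid shortage. It measured 10.44, 10.44 and 10.49 in SSM and 10.34, 10.29 and 10.33 in SSS, against 10.39, 10.25 and 10.28 in MSM, 10.33, 10.26 and 10.29 in MSS and 10.27, 10.32 and 10.43 in CC. SSM stood above all other groups, and SSS overlapped both mild groups. The averaged Asns difference was 0.09 (SE 0.041, 1.06-fold, adjusted p = 0.414).

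The stress effectors behaved unevenly. Ddit3 encodes CHOP, a transcription factor of lasting ER stress. It measured 6.26, 6.37 and 6.13 in SSM and 6.33, 6.14 and 6.42 in SSS, against 6.04, 6.37 and 6.31 in MSM, 6.33, 6.39 and 6.23 in MSS and 6.29, 6.27 and 6.11 in CC. Its groups overlapped throughout, and the severity difference was -0.0033 (SE 0.068, 95% interval -0.15 to 0.14). Trib3 encodes a pseudokinase induced by Atf4 and Ddit3. It measured 5.32, 5.21 and 5.24 in SSM and 5.23, 5.51 and 5.21 in SSS, against 5.24, 5.24 and 5.35 in MSM, 5.24, 5.25 and 5.24 in MSS and 5.34, 5.18 and 4.97 in CC. Trib3 was the member whose mean lay below the median of all genes, and it read 5.2427 on 5 of the 15 arrays. Its difference was 0.03 (SE 0.064, 95% interval -0.11 to 0.17).

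Chac1 encodes an enzyme that breaks down glutathione and is induced through Atf4. Its levels were 6.52, 6.47 and 6.79 in SSM and 6.76, 6.74 and 6.52 in SSS, against 6.44, 6.52 and 6.55 in MSM, 6.29, 6.34 and 6.53 in MSS and 6.54, 6.38 and 6.53 in CC. SSM replicate 3 and SSS replicates 1 and 2 were the 3 severe arrays above the highest mild array, and the averaged difference was 0.19 (SE 0.065, 1.14-fold, adjusted p = 0.276). Sesn2 encodes a sestrin, a leucine-binding protein that restrains the growth kinase mTORC1. It measured 6.37, 6.49 and 6.46 in SSM and 6.36, 6.18 and 6.27 in SSS, against 6.56, 6.56 and 6.69 in MSM, 6.39, 6.22 and 6.42 in MSS and 6.40, 6.198 and 6.19 in CC. Sesn2 had its highest values in MSM, and its severity difference was -0.12 (SE 0.054, 0.923-fold, adjusted p = 0.413).

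**Figure D2:**
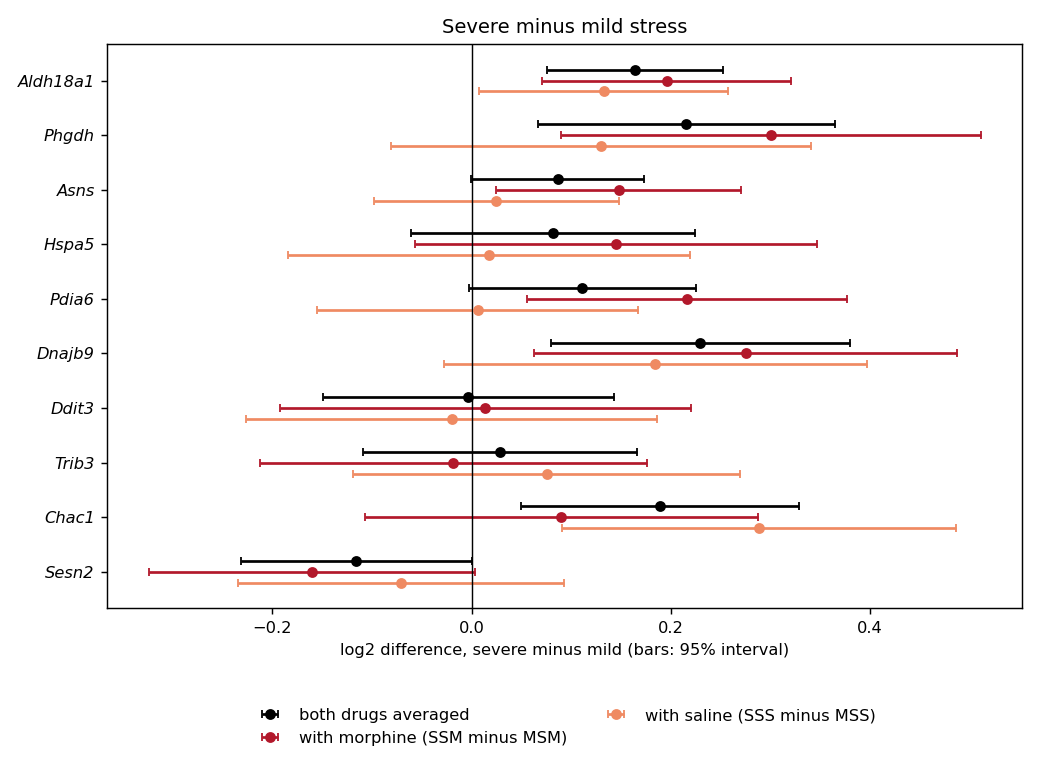
Log2 difference of severe minus mild stress (horizontal axis) for each of the 10 genes, averaged over both drugs (black), with morphine (SSM minus MSM, red) and with saline (SSS minus MSS, orange); bars are unadjusted 95% intervals from limma. Aldh18a1 lies at 0.16 when averaged, 0.20 with morphine and 0.13 with saline, and Sesn2 lies below 0 in all 3 comparisons.

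Severe against mild stress was then read separately under each drug. With morphine (SSM minus MSM) the median of the 10 genes was 0.146, against 0.063 over all genes. Of the 10, 8 were higher, against 73.6% of all genes. The largest differences were those of Phgdh (0.30, SE 0.099), Dnajb9 (0.28, SE 0.099), Pdia6 (0.22, SE 0.075), Aldh18a1 (0.20, SE 0.059) and Asns (0.15, SE 0.058), which were the 5 with an unadjusted p under 0.05, against 12.1% of all genes. All SSM arrays lay above all MSM arrays for Aldh18a1, Phgdh, Pdia6 and Asns, as they did for 11.6% of all genes, and below them for Sesn2, as for 2.54%. For Phgdh the gap was almost a tie, with SSM replicate 3 at 7.80883 and MSM replicate 1 at 7.80871. No gene passed the threshold (0%), the smallest adjusted p among the 10 being 0.202 for Aldh18a1 (limma). With saline (SSS minus MSS) the median was 0.050, against 0.0076 over all genes. Again 8 of 10 were higher, against 54.4% of all genes. Chac1 (0.29, SE 0.092) and Aldh18a1 (0.13, SE 0.059) had an unadjusted p under 0.05, against 1.28% of all genes. That count of 2 was 1, Chac1 alone, after median centring (1.53% of all genes) and without SSS replicate 2, SSS replicate 3, MSS replicate 2 or MSS replicate 3 (0.988% to 1.62%). None of the 10 had all SSS arrays above all MSS arrays, as 6.49% of genes did, and no gene passed the threshold (0%). Choroid plexus markers were higher in SSS than in MSS (9 of 9, median 0.57). Their sums were 13.03, 9.59 and 13.38 in SSS against 9.77, 9.66 and 13.18 in MSS. Striatum (7 of 7, median -0.13) and myelin markers (6 of 6, -0.21) were lower in SSS, and the part of these markers was not tested. Hspa5 and Pdia6 differed by 0.02 and 0.0062 with saline and by 0.14 and 0.22 with morphine. The difference between the 2 severity contrasts was tested as the interaction, in which Pdia6 had the smallest p of the 10 (0.21, SE 0.11, unadjusted p = 0.068, adjusted p = 0.959), and no gene passed (0%).

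The higher values of SSM went with features of its arrays. SSM replicate 3 had the highest median over all genes, and the median gene lay 0.161 above its mean over the other arrays there. Centring each array on its median brought the averaged severity median of the 10 genes to 0.073 and that of all genes to 0.0099, and moved the split of all genes at an unadjusted p under 0.05 to 5.73% higher and 5.02% lower. Centring on all probe sets, an alternative added after the data were seen, gave 0.128 for the 10 genes and a split of 21.7% and 1.77%. For SSM minus MSM the split was 12.1% higher and 2.26% lower as deposited, and 6.36% and 4.93% after median centring. Under every scaling tried, Aldh18a1, Dnajb9, Phgdh, Chac1, Pdia6, Asns and Hspa5 kept a positive and Sesn2 a negative averaged difference, whereas Ddit3 changed sign. Microglia markers were also higher in SSM than in MSM (9 of 9, median difference 0.21), with summed levels of 10.39 to 10.73 in SSM against 10.36 to 10.37 in MSM. Striatum markers (7 of 7, median 0.62) and hippocampal neuron markers (7 of 8, 0.18) were higher in SSM too, and thalamus markers (7 of 8, -0.19) lower. Without SSM replicate 1 and MSM replicate 3, striatum sums were 9.57 and 9.72 in SSM against 9.51 and 10.83 in MSM. Thalamus sums were then 10.90 and 11.05 in SSM against 10.76 and 10.58 in MSM, and hippocampal neuron sums 11.82 and 11.96 against 11.89 and 11.74. The part of these features in the genes' differences was not tested. Without SSM replicate 1 and MSM replicate 3, the arrays with high striatum and thalamus markers, the averaged median was 0.097 and that of SSM minus MSM 0.147. In SSM minus MSM, 3 genes (Aldh18a1, Dnajb9 and Pdia6) then had an unadjusted p under 0.05, against 12.7% of all genes. The count was also 3 without MSM replicate 2 (10.5% of all genes), and 2 with array weights (6.20%).

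Averaging the 10 genes on each array, after centring each on its own mean, gives a value per pup. The mean deviation was 0.083, 0.063 and 0.12 in SSM and 0.0066, -0.039 and 0.058 in SSS, against -0.056, -0.032 and -0.0063 in MSM, -0.045, -0.064 and -0.096 in MSS and 0.016, 0.015 and -0.025 in CC. On the deposited scale the 3 SSM arrays were the highest of the series and MSS replicate 3 the lowest, while SSS replicate 2 lay within the range of the mild arrays. After median centring SSM replicate 3 stood at -0.019, below all 3 SSS arrays (0.033, -0.012 and 0.055). It also lay below all 3 CC arrays (0.018, 0.024 and -0.0066) and 2 of the 6 mild arrays. SSM replicates 1 and 2 stood at 0.062 and 0.083. After centring on all probe sets the SSM arrays stood at 0.14, 0.13 and -0.0068. On the SSM arrays 7, 7 and 8 of the 10 genes lay above their own mean over the series, and on MSS replicate 3 only 1 did, Sesn2.

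Morphine against saline was compared within each stress level and on average. Averaged over both levels, Sesn2 (0.22, SE 0.054, unadjusted p = 0.0012) and Dnajb9 (0.22, SE 0.070, unadjusted p = 0.0081) were the members with an unadjusted p under 0.05, against 7.04% of all genes higher. Neither passed the threshold (adjusted p = 0.649 for each), and no gene did (0%). For Sesn2 the 6 morphine arrays ran from 6.37 to 6.69 with a median of 6.53, and the 6 saline arrays from 6.18 to 6.42 with a median of 6.31. Of the morphine arrays 5 exceeded the highest saline array, the exception being SSM replicate 1. For Dnajb9 the morphine arrays ran from 7.33 to 7.91 (median 7.68) and the saline arrays from 7.22 to 7.67 (median 7.45), so that the groups overlapped widely. Markers of several tissues and cell types moved with morphine. Those of choroid plexus (9 of 9, median 0.70), striatum (7 of 7, 0.73) and myelin (6 of 6, 0.60) were higher with morphine, and 7 of 8 hippocampal neuron markers were lower (median -0.26). Their sums varied between arrays of a drug, from 9.51 to 12.75 for striatum with morphine and from 9.59 to 13.38 for choroid plexus with saline. Without SSM replicate 1 and MSM replicate 3, Sesn2 and Dnajb9 each still differed by 0.21 (limma), and the part of these markers was not tested. The median of the 10 genes was 0.043, against 0.027 over all genes, and was 0.00085 after median centring. Under that centring the split of all genes at an unadjusted p under 0.05 was 2.22% higher and 4.70% lower, against 7.04% and 0.597% as deposited. Sesn2 and Dnajb9 kept differences of 0.17 each.

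Under mild stress (MSM minus MSS), all arrays of which carry SS number 11, Sesn2 differed by 0.26 (SE 0.077, unadjusted p = 0.0040, adjusted p = 1.00 by limma). It was the member with an unadjusted p under 0.05, against 1.58% of all genes, and the member whose MSM arrays all lay above the MSS arrays, against 3.87%. Dnajb9 followed with 0.17 (SE 0.099) and Pdia6 stood at -0.12 (SE 0.075). No gene passed the threshold (0%). Choroid plexus markers, whose summed level was 13.003 to 13.37 in MSM, were 9.77, 9.66 and 13.18 in MSS, and 9 of 9 were higher in MSM. On MSS replicate 3, where choroid plexus markers were high, Sesn2 was 6.42, below all 3 MSM arrays. It was 6.39 and 6.22 on MSS replicates 1 and 2, where those markers were low. Myelin (6 of 6, median 0.63) and striatum markers (7 of 7, 0.31) were also higher in MSM, and 8 of 8 hippocampal neuron markers were lower (-0.29), and the part of these markers was not tested.

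Under severe stress (SSM minus SSS), Dnajb9 (0.26, SE 0.099), Sesn2 (0.17, SE 0.077) and Asns (0.14, SE 0.058) had an unadjusted p under 0.05, against 8.71% of all genes, and no gene passed the threshold (0%). SSM and SSS did not overlap for Sesn2 and Asns, as for 11.7% of all genes. This count of 3 rested on single arrays: it was 0 without SSM replicate 3 (4.32% of all genes), 0 without SSS replicate 2 (4.13%) and 1 after median centring (2.61%). SSM replicates 2 and 3 carry SS number 9 and SSS replicates 1 and 2 carry 10, so drug and SS number are only partly separable here. Within SS number 8, which holds SSM replicate 1 and SSS replicate 3, the differences were 0.11 for Dnajb9, 0.10 for Sesn2 and 0.11 for Asns, a pair of arrays without replication. In SSM against SSS, striatum markers (7 of 7, median 1.16), myelin markers (6 of 6, 0.59), choroid plexus markers (9 of 9, 0.26) and microglia markers (9 of 9, 0.18) were higher, and 6 of 8 hippocampal neuron markers were lower (median -0.19). Summed striatum markers were 12.75, 9.57 and 9.72 in SSM and 9.40 to 9.56 in SSS. Summed myelin markers were 11.53, 9.92 and 9.93 in SSM and 9.79 to 9.92 in SSS. Choroid plexus sums were 13.03, 9.59 and 13.38 in SSS. The part of these markers in the gene differences was not tested.

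The stressed groups were set against the untreated pups last, in 4 comparisons that share the CC arrays. Only CC carries SS number 12, so treatment and SS number cannot be told apart in any of them. In SSM, 9 of 10 genes were higher than in CC, as were 76.9% of all genes, and the median was 0.086, against 0.062 over all genes. This included Dnajb9 (0.22, SE 0.099) and Sesn2 (0.18, SE 0.077) at an unadjusted p under 0.05, against 7.93% of all genes. SSM did not overlap CC for Dnajb9 and Asns, as for 10.4% of all genes. Neither Dnajb9 nor Sesn2 kept an unadjusted p under 0.05 after median centring or without SSM replicate 3. Without SSM replicate 1, 1 of the 10 was higher at an unadjusted p under 0.05 (12.5% of all genes). In SSS, 4 were higher and 6 lower than in CC, where 52.7% of all genes were higher. None of the 10 had an unadjusted p under 0.05 in either direction (0.933% and 1.09% of all genes). Chac1 had the largest SSS difference (0.19, SE 0.092). In SSM, striatum (7 of 7, median 0.51), myelin (6 of 6, 0.41), choroid plexus (9 of 9, 0.26) and microglia markers (9 of 9, 0.14) were higher than in CC. In SSS, striatum (7 of 7, -0.64) and myelin markers (6 of 6, -0.18) were lower. The part of these markers was not tested.

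The mild groups lay below CC for most of the chaperones and synthesis enzymes. In MSM, Phgdh (-0.23, SE 0.099) and Pdia6 (-0.21, SE 0.075) were lower and Sesn2 higher (0.34, SE 0.077, 1.27-fold) at an unadjusted p under 0.05, against 1.18% of all genes lower and 1.58% higher. All MSM arrays lay below all CC arrays for Aldh18a1, Pdia6 and Hspa5 (3.83% of all genes), and above them for Sesn2 (4.02%). In MSS, Aldh18a1 (-0.15, SE 0.059) and Dnajb9 (-0.23, SE 0.099) were lower at an unadjusted p under 0.05, against 1.16% of all genes. For Aldh18a1, Dnajb9, Phgdh and Hspa5 all MSS arrays lay below all CC arrays, as for 5.09% of all genes. Over both mild groups, all 6 arrays lay below all 3 CC arrays for 2 of the 10, Aldh18a1 (8.14 to 8.26 against 8.27 to 8.42) and Hspa5 (10.41 to 10.58 against 10.61 to 10.69), as for 0.978% of all genes. In none of these 4 comparisons did any gene pass the threshold (0%), and an F-test over the 5 groups called none either (0%), with Sesn2 lowest of the 10 (unadjusted p = 0.0025, adjusted p = 0.540). The MSS count of 2 was 0 without MSS replicate 3, and the MSM count of 2 lower genes was 0 without CC replicate 2. Without MSM replicate 3 the MSM count of lower genes was 1 (0.928% of all genes). In MSS, choroid plexus (9 of 9, median -0.62) and striatum markers (7 of 7, -0.54) were lower than in CC. In MSM, myelin (6 of 6, 0.61), choroid plexus (9 of 9, 0.34) and 7 of 8 thalamus markers (0.32) were higher. All 8 hippocampal neuron markers were lower in MSM (median -0.16). Summed striatum markers were 11.42, 9.54 and 9.53 on the CC arrays, and the part of these markers was not tested.

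**Figure D3:**
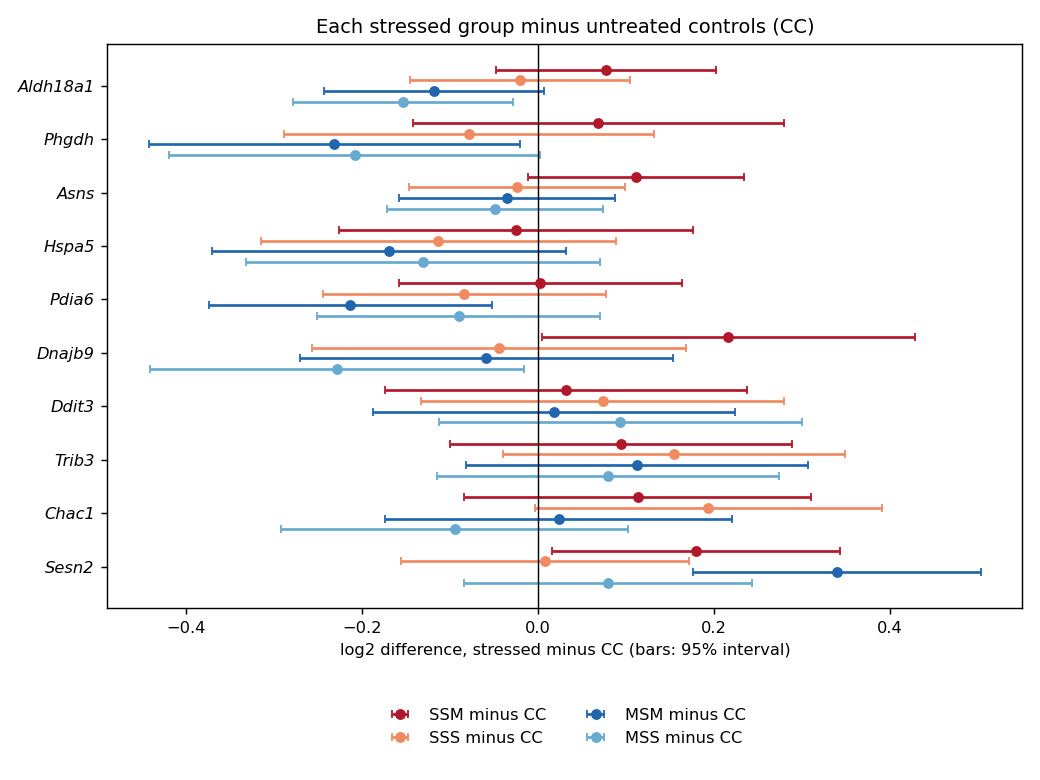
Log2 difference of each stressed group minus CC (horizontal axis) for the 10 genes, with SSM, SSS, MSM and MSS from top to bottom within a gene; bars are unadjusted 95% intervals from limma. Aldh18a1, Phgdh, Hspa5 and Pdia6 lie at or below 0 in both mild groups, and Sesn2 lies at 0.34 in MSM.

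The order of the 5 group means differed between the genes. For Aldh18a1 it ran SSM, CC, SSS, MSM, MSS, and the steps from SSM to CC and from SSS to MSM exceeded the larger SD of the neighbouring groups. Dnajb9 had the same order, with a step beyond the spread from SSM to CC only. Asns followed it too, again with a step beyond the spread from SSM to CC only, while Phgdh and Pdia6 had SSM, CC and SSS above MSS and MSM. Phgdh had its step beyond the spread between SSS and MSS, and Pdia6 between MSS and MSM. For Sesn2 the order was MSM, SSM, MSS, SSS, CC, with the step from MSM to SSM beyond the spread. Chac1, Hspa5, Ddit3 and Trib3 had no neighbouring groups that differed by more than the larger SD.

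Other genes of both pathways were read from 7 lists of 96 genes, of which 90 were measured, 4 of them under another symbol. Under severe against mild stress 73 were higher and 17 lower, where 70.3% of all genes were higher. The median was 0.070, against 0.035 over all genes. At an unadjusted p under 0.05, 16 were higher and 0 lower (9.28% and 2.80% of all genes), and 0 passed the threshold. The same shares of all genes, 70.3% and 9.28%, are the background for the counts of each list. These shares include dim genes. Among genes kept by the filter on dim genes, 15.1% were higher at an unadjusted p under 0.05, and the median was 0.049. The lists are counted without that filter. The ER chaperones and foldases had the highest median (0.102, 18 of 19 higher, 6 at an unadjusted p under 0.05), with the disulfide isomerase Pdia3 at 0.13 (SE 0.046), the calcium-binding chaperone Calr at 0.14 (SE 0.048) and the Hsp70 relative Hyou1 at 0.11 (SE 0.045). In ER-associated degradation and translocation 15 of 16 were higher (median 0.081, 4 at an unadjusted p under 0.05). Derl2, a channel component for export of misfolded protein, differed by 0.21 (SE 0.052, adjusted p = 0.135), Srprb, a signal recognition particle receptor subunit, by 0.13 (SE 0.054) and Sel1l, a scaffold of the ubiquitin ligase there, by 0.10 (SE 0.042).

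Of the 14 measured sensors and transcription factors 12 were higher, against 70.3% of all genes. Their median of 0.043 was close to that of all genes. Atf6b, a relative of Atf6, differed by 0.19 (SE 0.058), the transcription factor Xbp1 by 0.16 (SE 0.062) and Eif2ak3 by 0.12 (SE 0.047). These were the 3 with an unadjusted p under 0.05, against 9.28% of all genes higher. Among effectors downstream of Atf4, 6 of 9 were higher (median 0.048), with 1 at an unadjusted p under 0.05: Ppp1r15a, which helps dephosphorylate eIF2 alpha, at 0.14 (SE 0.054). Vldlr, a lipoprotein receptor, stood at 0.09 (SE 0.056) and Sqstm1, an autophagy adaptor, at 0.08 (SE 0.046).

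The amino acid arm beyond the members lay close to the background, in which 70.3% of genes were higher, 9.28% at an unadjusted p under 0.05. In amino acid and one-carbon synthesis 8 of 11 were higher, the median was 0.035, as over all genes, and none had an unadjusted p under 0.05; the proline enzyme Pycrl stood at 0.12 (SE 0.070), the folate enzyme Mthfd2 at 0.09 (SE 0.065) and the transaminase Got1 at 0.07 (SE 0.055). Amino acid transporters had 7 of 10 higher and a median of 0.029, with Slc1a4, a neutral amino acid carrier, at 0.14 (SE 0.042, unadjusted p = 0.0039), Slc38a2 at -0.11 (SE 0.053) and Slc7a5 at 0.07 (SE 0.038). For aminoacyl-tRNA synthetases 7 of 11 were higher (median 0.049), with Wars at 0.15 (SE 0.053, unadjusted p = 0.011), Gars at 0.07 (SE 0.037) and Nars at 0.08 (SE 0.048). With morphine the chaperone median was 0.154 and with saline 0.046, against 0.063 and 0.0076 over all genes.

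**Figure D4:**
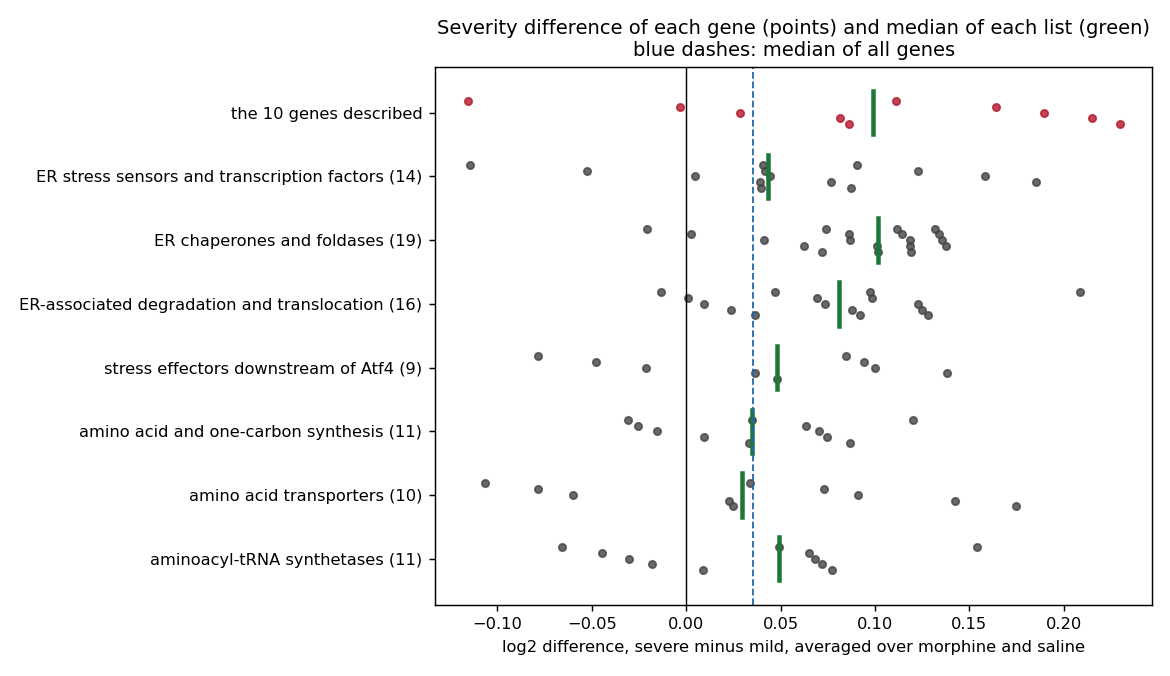
Log2 difference of severe minus mild stress, averaged over both drugs (horizontal axis), for each measured gene of the 10 described (red) and of 7 wider lists (grey, number measured in brackets); green bars are list medians and the dashed line is the median of all genes, 0.035. The medians of the chaperones (0.102) and of ER-associated degradation and translocation (0.081) lie farthest from that line among the wider lists.

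Likeness between genes was measured as the mean absolute difference over the 15 arrays of log2 values centred on each gene's own mean. Among the 10, Pdia6 and Hspa5 were closest (0.071), followed by Aldh18a1 and Asns (0.073), and Phgdh and Sesn2 were farthest apart (0.197). The genes most like the mean of the 10, among 3366 with a comparable SD, were Ppp2ca (0.025), Rtn1 (0.025), Kat5 (0.028), Slc35b1 (0.029) and Ints11 (0.030). The nearest gene was Magt1 for Hspa5 (0.051), Bloc1s5 for Pdia6 (0.036), Sap30bp for Dnajb9 (0.066), Snapc2 for Aldh18a1 (0.037) and Pgam5 for Phgdh (0.059). It was Atp6v0d1 for Asns (0.022), Hipk3 for Ddit3 (0.066), Smcr8 for Trib3 (0.042), Uncx for Chac1 (0.059) and Itga10 for Sesn2 (0.059).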

How the data were processed

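RNA of 15 hippocampi, 3 per group, was hybridised to 1 array each. The authors deposited log2 intensities made with RMA, per the submitters' processing notes, and the sources used here give no version of RMA. RMA scales all arrays to one distribution of probe intensities, so differences are relative to the other genes on an array. All 15 array columns matched a sample, and 0 array columns were left unused. Groups came from the treatment in the labels. Of 35557 probe sets, 23410 had gene annotation, 21789 of them with a single symbol and 1621 with several, and 12147 had none. Probe sets with a single symbol gave 19938 genes, the brightest standing for a gene with more than 1.

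Group means were fitted with limma 3.58.1 (R 4.3.3) on all 15 arrays, with 10 residual and 4.61 prior degrees of freedom, for 11 contrasts and an F-test, two-sided, with Benjamini-Hochberg adjustment over 19938 genes at 0.05. Averaged contrasts are means of the 2 contrasts within each drug or stress level. Scripts were tested on simulated data. Figures were drawn with matplotlib 3.10.9 in Python 3.11.15. The number of arrays limits the precision. The members and gene lists were chosen with earlier results of these data known. Named genes are all 10 members, the 3 genes of lowest p per wider list, the 5 genes most like the members' mean and the nearest to each member, with an SD 0.8 to 1.25 times that of the pattern compared and passing over predicted genes, RIKEN clones and small RNAs. Alternatives were other scalings of the arrays, probe set summaries, a filter on dim genes, array weights, fewer groups, a random block for the SS or the H number in the titles, and arrays left out.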

Additional observations from a re-analysis of the deposited data

How the results depend on the processing

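None of the 10 genes passed the adjusted threshold in any of 25 alternatives (limma). The lowest adjusted p was 0.0671, for Chac1 in the averaged severity comparison after centring on all probe sets, an alternative chosen after seeing the data. Of 110 differences (10 genes in 11 contrasts), 74 kept their sign throughout. The titles carry an H number of unstated meaning, which MSM and CC share for 3 arrays and SSM and MSM for 2. Deviations from the group means correlated at over 0.1 in 4 of 10 same-numbered pairs (-0.39 to 0.43). These mixed values do not settle whether the H number pairs arrays, and the arrays were not treated as paired. The H number was tried as a random replicate block, added after seeing the data. The estimated correlation was then -0.063, none of the 10 genes passed and the averaged severity median was 0.098. With SS number as a random block (correlation 0.0650) the adjusted p of Aldh18a1 for averaged severity was 0.333, and with array weights 0.0709 (limma). The filter on dim genes removed Trib3 and raised the background shares at an unadjusted p under 0.05. For averaged severity 15.1% of the genes kept were higher, for SSM minus MSM 17.6% and for SSS minus MSS 1.97%. Of the 9 members kept, 5, 5 and 2 were higher at that cutoff.

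The median of the 10 differences moved by more than the spread between replicates (0.032) under some scalings. After quantile normalization it was 0.0547 for averaged severity, 0.0821 for SSM minus MSM, 0.0073 for averaged morphine, 0.040 for SSM minus SSS, 0.031 for SSM minus CC and 0.024 for the interaction. After median centring it was 0.099 for SSM minus MSM, 0.00085 for averaged morphine, 0.029 for SSM minus SSS, 0.029 for SSM minus CC and 0.034 for the interaction. After centring on all probe sets it was 0.090 for SSS minus MSS and -0.079 for MSM minus CC. Leaving out 1 array at a time, which in several comparisons moved it by less than that spread, gave 0.082 to 0.133 for averaged severity, 0.049 to 0.086 for SSS minus MSS, 0.123 to 0.163 for SSM minus MSM, 0.035 to 0.075 for averaged morphine, 0.012 to 0.047 for MSM minus MSS and 0.059 to 0.144 for SSM minus SSS. Against CC it gave 0.041 to 0.101 for SSM, -0.041 to -0.0052 for SSS, -0.087 to -0.021 for MSM and -0.110 to -0.064 for MSS, and 0.026 to 0.113 for the interaction. Over all genes, 2 passed the adjusted threshold for averaged severity, against 14 after quantile normalization, 17 after median centring, 32 after centring on all probe sets, 43 with array weights, 17 without SSS replicate 3 and 5 without SSM replicate 3. The cause was not tested.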
